A study of Mus musculus with 20 samples.

Results

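The genes described here are the core of the integrated stress response that runs through the transcription factor ATF4, followed across 4 groups of mouse cortical neuron cultures. They were chosen by symbol: Atf4, Atf3, Atf5, Ddit3, Trib3, Ppp1r15a, Chac1, Asns, Psat1 and Gdf15. All 10 were found among the 14700 gene symbols listed in at least 1 of the 4 deposited tables. Of these, 9 were listed in every table. Gdf15 was listed only in the pair of tables that hold the deprived knockout libraries, so its presence itself depended on the group in which it was high.

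Neurons were taken from the cortex of mouse embryos at embryonic day 15, grown for 7 days and then kept for 12 h in one of 2 conditions. Normoxia (N) meant incubator air with glucose at 25 mM and sodium pyruvate, and oxygen and glucose deprivation (OGD) meant 1% oxygen in medium without added glucose. Cultures were wild type (WT) or lacked the circular RNA ciRS-7 (KO), which is transcribed from Cdr1as. The labels give the strain C57BL/6N-Cdr1asem1Nikr for every library, the WT libraries included. Each group (N_WT, OGD_WT, N_KO and OGD_KO) had 5 libraries, which the submitters call biological replicates. The number of embryos behind a culture is not given in the sources used here.

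Recovered reads per library ranged from 7071506 to 16658617. Cdr1as had between 545 and 1912 reads in the WT libraries and between 2 and 16 in the KO libraries, and no library went against its genotype label. All 10 neuron markers examined were listed, and none of 8 microglia markers was listed in any table. The summed level of 9 listed astrocyte markers was 1160 to 1460 CPM (counts scaled to a common library size) in N_WT and 1880 to 2330 in OGD_WT. It was 888 to 1580 CPM in N_KO and 1520 to 2350 in OGD_KO. The summed level of the neuron markers was 4810 to 6250 CPM in N_WT, 3070 to 5880 in OGD_WT, 5340 to 5480 in N_KO and 3210 to 4680 in OGD_KO. The part of these marker shifts in the results that follow was not tested, and in RNA from whole cultures fewer cells of a type and less RNA per cell cannot be told apart. The mitochondrial ribosomal RNA mt-Rnr2 took between 10.1% and 16.4% of the reads of an N library and between 13.8% and 32.0% of an OGD library. The highest share, 32.0%, was in OGD_KO 5, and some results are also given without that culture.

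The integrated stress response is a shared reaction to several kinds of stress. Kinases that sense unfolded protein, missing amino acids, viral RNA or heme deficiency phosphorylate the translation factor eIF2, which lowers protein synthesis in general. Translation of the Atf4 mRNA rises under these conditions because of short upstream reading frames, so that its RNA level is only part of its regulation. ATF4 then pairs with other basic leucine zipper (bZIP) proteins, above all C/EBP proteins, and acts on genes for amino acid supply, redox balance and cell fate. In neurons the pathway is studied in ischemia, in neurodegeneration and in memory.

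ATF4 and its C/EBP partners bind a composite site, and its short form TGATGNAA was searched on both strands in the RefSeq promoters of these genes (build GRCm38.p6, 250 bases before to 50 after each start). The letters were present in 4 of the 10 genes, against 4.5% of all 27025 genes in the promoter table. A match is a description of these letters and does not show that a factor binds. The matching stretches are shown as a description. Whether a match goes with the change of a gene under OGD was not tested. Each is written 5′ to 3′ on the strand of its gene, with the match or its reverse complement in capitals.
Atf3: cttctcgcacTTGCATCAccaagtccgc
Trib3: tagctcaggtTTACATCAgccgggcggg
Chac1: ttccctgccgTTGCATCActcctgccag
Asns: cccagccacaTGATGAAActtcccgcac

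The Atf3 stretch lies at chr1:191183426-191183453 on the minus strand, with the match from base -110 to -103 relative to the start. The Trib3 stretch is chr2:152344029-152344056 on the minus strand, with the match at bases 15 to 22 after the start. The Chac1 stretch is chr2:119351039-119351066 on the plus strand, with the match from base -193 to -186. The Asns stretch is chr6:7693215-7693242 on the minus strand, with the match from base -23 to -16. Atf3, Trib3 and Chac1 carry the letters on the strand opposite to the gene and Asns on the gene's own strand. The promoters of Atf4, Atf5, Ddit3, Psat1, Ppp1r15a and Gdf15 held no match in this window.

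OGD raised most of these genes in both genotypes. In WT, 7 of the 9 listed genes rose, against 21.6% of all genes called higher in that comparison and 22.8% called lower. In KO, 8 of the same 9 genes rose, against 21.0% of all genes called higher and 19.9% called lower. Gdf15 is left out of these counts because of how it came to be listed. The median difference of these 9 genes, OGD minus N in log2 CPM, was 0.89 in WT beside -0.03 over all genes, and 0.78 in KO beside 0.0 over all genes. Among them Atf3 rose most in each genotype, and Asns, the asparagine synthetase gene, was called in neither. Calls are limma tests with Benjamini-Hochberg adjustment over all genes of a table at 0.05, and every adjusted p given for these genes is from them.

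**Figure D1:**
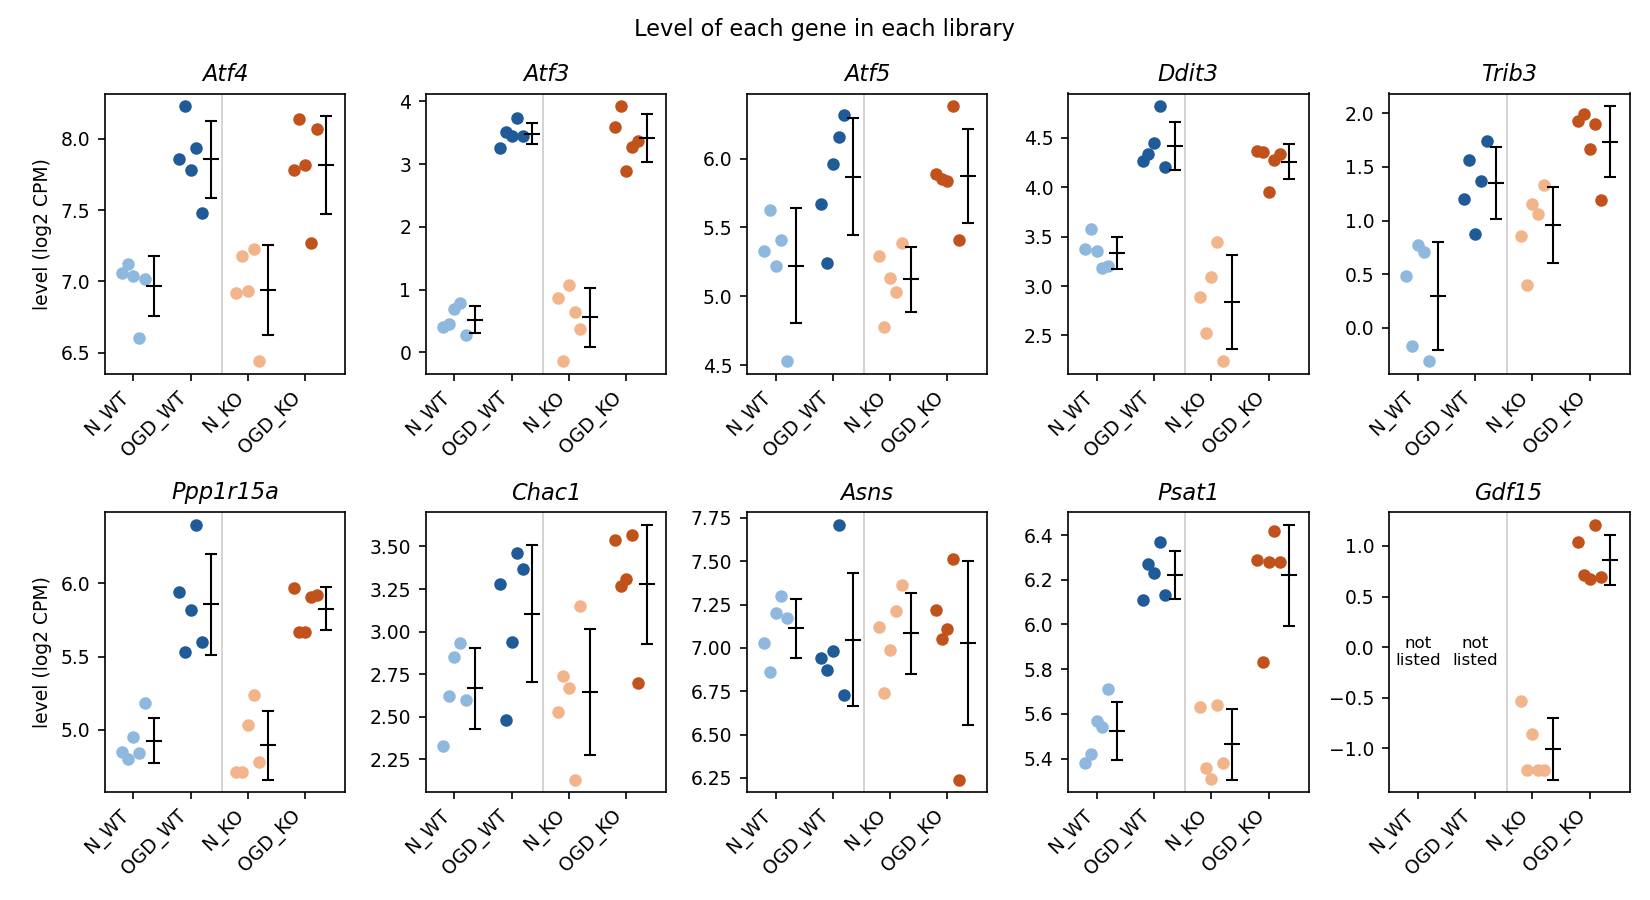
Level (log2 CPM) of each gene in each library, with the mean and SD of 5 libraries beside the points. WT and KO libraries, separated by the grey line, come from separately scaled tables. Every OGD point lies above every N point for Atf4, Atf3, Ddit3, Psat1 and Ppp1r15a in both genotypes. The Asns groups overlap in both.

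Atf4 itself, the bZIP factor at the centre of the response (chr15:80255184-80257545, plus strand, build GRCm38.p6 as for all positions here), stood at 7.06, 7.12, 7.04, 6.60 and 7.02 log2 CPM in N_WT 1 to 5. In OGD_WT 1 to 5 it stood at 7.86, 8.23, 7.78, 7.94 and 7.48 log2 CPM. All OGD_WT libraries lay above all N_WT libraries, as did 13.9% of all genes in that direction. The fitted difference was 0.89 (SE 0.16, adjusted p = 0.000115), a 1.86-fold rise. In N_KO 1 to 5 the Atf4 level was 6.92, 7.18, 6.93, 7.23 and 6.44 log2 CPM. In OGD_KO 1 to 5 it was 7.78, 8.14, 7.82, 7.27 and 8.07 log2 CPM. The KO groups did not overlap either, which held for 13.4% of all genes in that direction, but the lowest OGD_KO library, number 4, was only just above the highest N_KO library. The KO difference was 0.88 (SE 0.18, adjusted p = 0.000997). Without culture KO5 it was 0.69 (adjusted p = 0.00112).

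Atf4 rose in all 10 cultures, by 0.45 to 1.34 in WT and by 0.05 to 1.63 in KO. The smallest change was that of KO4 and the greatest that of KO5.

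Atf3, a stress-induced bZIP factor and partner of JUN, went from very few reads to a readily counted level. Its N_WT libraries held 6 to 14 reads and stood at 0.40, 0.45, 0.69, 0.79 and 0.27 log2 CPM. The OGD_WT libraries held 101 to 141 reads and stood at 3.26, 3.51, 3.45, 3.73 and 3.45 log2 CPM. The groups lay far apart and each was tight. The difference was 2.96 (SE 0.17, adjusted p = 2.61e-11), 7.80-fold, and only 0.155% of all genes had a larger rise. The KO libraries stood at 0.86, -0.14, 1.07, 0.65 and 0.37 log2 CPM in N and at 3.59, 3.92, 2.89, 3.27 and 3.37 under OGD. They were more scattered than the WT libraries but did not overlap, and the difference was 2.85 (SE 0.22, adjusted p = 4.63e-08). Because the N libraries held so few reads, the value depends on the prior count added before the logarithm. With a prior count of 0.5 in place of the deposited scale the differences were 3.35 in WT and 3.27 in KO.

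Ddit3 (chr10:127290793-127296291, plus strand) encodes CHOP, the C/EBP-family factor that acts with ATF4 and is known for its part in stress-induced cell death. It stood at 3.37, 3.58, 3.35, 3.18 and 3.20 log2 CPM in N_WT and at 4.27, 4.34, 4.45, 4.82 and 4.21 in OGD_WT. The groups did not overlap and Ddit3 rose by 1.09 (SE 0.15, adjusted p = 8.87e-06), 2.12-fold. In N_KO it stood at 2.89, 2.52, 3.09, 3.45 and 2.24 log2 CPM, a wider spread than in N_WT. In OGD_KO it stood at 4.37, 4.36, 3.95, 4.28 and 4.34 log2 CPM, and it rose by 1.42 (SE 0.19, adjusted p = 1.56e-05), 2.68-fold. Without culture KO5 the rise was 1.25 (adjusted p = 8.33e-07).

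Atf5 (chr7:44812256-44816658, minus strand), a bZIP factor whose mRNA is translated under stress much as that of Atf4 is, rose less evenly. In N_WT it stood at 5.33, 5.63, 5.22, 5.41 and 4.53 log2 CPM and in OGD_WT at 5.67, 5.24, 5.96, 6.16 and 6.32. The groups overlapped, since WT2 was higher in N than under OGD. The WT difference was 0.65 (SE 0.20, adjusted p = 0.0134), but with the culture as a block, which pairs the N and OGD libraries of a culture, the adjusted p was 0.0574. Without culture WT5, whose N library was the lowest, it was 0.36 with an adjusted p of 0.0561, and without WT4 it was 0.62 with an adjusted p of 0.0606. In KO the groups did not overlap, from 4.78 to 5.39 log2 CPM in N and from 5.41 to 6.38 under OGD, and the difference was 0.75 (SE 0.17, adjusted p = 0.00188). Without culture KO5 it was 0.93 (adjusted p = 1.4e-05). Atf5 overlaps Il4i1 and Nup62 on the other strand and shares 1.8% of its 50-base words with them, and whether the counting used strand is not given in the sources used here.

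The negative regulators of the pathway rose with its activators. Ppp1r15a (chr7:45522917-45526268, minus strand) encodes GADD34, which brings a phosphatase to eIF2 and so ends the block on translation. It stood at 4.80 to 5.18 log2 CPM in N_WT and 5.53 to 6.40 in OGD_WT, with no overlap, and rose by 0.94 (SE 0.16, adjusted p = 9.58e-05). In KO it stood at 4.71 to 5.24 log2 CPM in N and 5.67 to 5.97 under OGD, again with no overlap, and rose by 0.94 (SE 0.15, adjusted p = 6.25e-05). Both differences correspond to 1.91-fold.

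Trib3, a pseudokinase that binds ATF4 and CHOP and is itself induced by them, was near the limit of counting, with 3 to 14 reads in N_WT and 16 to 29 in OGD_WT. Its WT levels were 0.48, -0.17, 0.77, 0.71 and -0.31 log2 CPM in N and 1.20, 1.56, 0.87, 1.37 and 1.74 under OGD. The groups did not overlap, although N_WT 3 and OGD_WT 3 differed by only 0.10. Trib3 rose by 1.05 (SE 0.24, adjusted p = 0.00109) in WT. In KO the N libraries stood at 0.86, 0.40, 1.15, 1.06 and 1.33 log2 CPM and the OGD libraries at 1.93, 1.99, 1.67, 1.90 and 1.19. These groups overlapped through OGD_KO 5, and the rise was 0.78 (SE 0.21, adjusted p = 0.0055). Without culture KO5 it was 1.01 (adjusted p = 0.000207).

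The genes for amino acid supply did not move alike. Psat1 (chr19:15905123-15925059, minus strand), the phosphoserine aminotransferase of serine synthesis, rose in all 10 cultures. It stood at 5.38, 5.42, 5.57, 5.54 and 5.71 log2 CPM in N_WT and at 6.11, 6.27, 6.23, 6.37 and 6.13 in OGD_WT, with no overlap. The rise was 0.70 (SE 0.13, adjusted p = 0.000256) in WT and 0.75 (SE 0.15, adjusted p = 0.000477) in KO, where levels went from 5.31 to 5.64 log2 CPM in N to 5.83 to 6.42 under OGD.

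Asns, which makes asparagine and is among the most used readouts of ATF4, stood at 7.03, 6.86, 7.20, 7.30 and 7.17 log2 CPM in N_WT. In OGD_WT it stood at 6.94, 6.87, 6.98, 7.71 and 6.73. The groups overlapped, with 1 OGD library above all N libraries and 1 below them. The difference was -0.06 (SE 0.17, 95% interval -0.42 to 0.29, adjusted p = 0.785). The interval does not reach the rise of Psat1 or of Atf4 in the same libraries, although no test of one gene's difference against another's was made. In KO, Asns stood at 7.12, 6.74, 6.99, 7.21 and 7.36 log2 CPM in N and at 7.22, 7.05, 7.11, 7.51 and 6.24 under OGD. Asns was higher under OGD in 4 of the 5 KO cultures and lower in KO5, where OGD_KO 5 held 445 reads. The KO difference was -0.06 (SE 0.20, 95% interval -0.47 to 0.36, adjusted p = 0.837), and without KO5 it was 0.21 (adjusted p = 0.294).

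Chac1, an enzyme that breaks down glutathione and a target of ATF4, lay close to the threshold. Its levels were 2.33, 2.62, 2.85, 2.93 and 2.60 log2 CPM in N_WT and 3.28, 2.48, 2.94, 3.46 and 3.37 in OGD_WT. The groups overlapped through OGD_WT 2, and the difference of 0.44 (SE 0.19) was not called (adjusted p = 0.058). Without WT2 it was 0.59 with an adjusted p of 0.0163. In KO it stood at 2.53, 2.74, 2.67, 2.13 and 3.15 log2 CPM in N and at 3.54, 3.27, 3.31, 3.57 and 2.70 under OGD. It rose by 0.63 (SE 0.20, adjusted p = 0.015), in 4 of 5 cultures. With the culture as a block the adjusted p was 0.0603, and without KO1, KO3 or KO4 it was 0.0854, 0.0501 or 0.0991. Without KO5, the culture in which it was lower under OGD, the difference was 0.90 (adjusted p = 9.13e-05).

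Gdf15 (chr8:70629393-70632470, minus strand), a secreted cytokine of the transforming growth factor family that is used as a blood marker of cell stress, was counted in very few reads. The N_KO libraries held 3, 0, 1, 0 and 0 reads and the OGD_KO libraries 22, 15, 16, 16 and 7. Summed over libraries and set against library sizes on the deposited scale, the ratio of OGD_KO to N_KO was 21.2. Its 95% interval of 7.96 to 79.9 covers counting error only. These values are a description with no test, since the gene was listed through the OGD_KO libraries and had to be higher there. The OGD_WT libraries held 8, 6, 10, 13 and 17 reads, in the table that compares genotypes under OGD. A level for N_WT was not analysed here.

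Atf3, Psat1 and Ppp1r15a also overlap an annotated gene on the other strand, which is Gm24748, Gm3329 and Tulp2 respectively. Ddit3 shares 1.1% of its 50-base words with Mars and Psat1 0.7% with Gm12611, so a small part of their reads could be assigned to either gene.

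**Figure D2:**
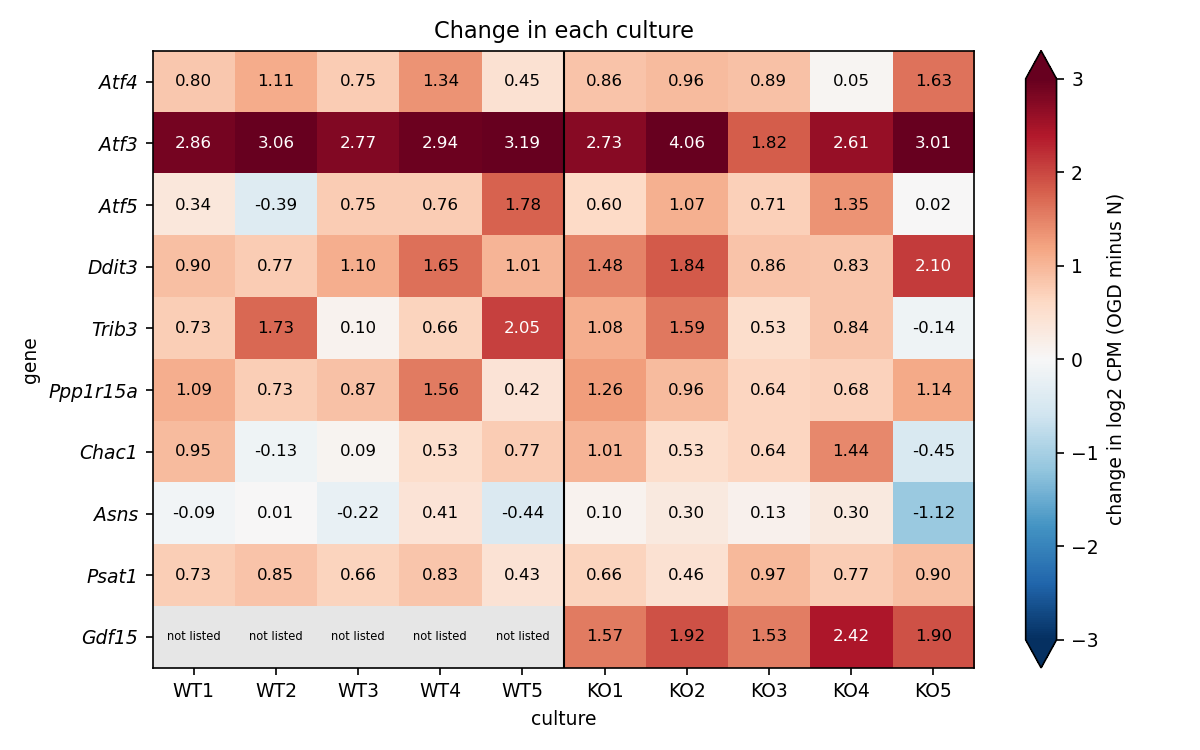
Change in log2 CPM (OGD minus N) of each gene (rows) in each of 10 cultures (columns, WT1 to WT5 and KO1 to KO5), with red for higher and blue for lower under OGD. The Atf3 row is the darkest throughout, and KO5 joins the greatest Atf4 and Ddit3 changes (1.63 and 2.10) with the lowest Asns, Chac1 and Trib3 changes (-1.12, -0.45 and -0.14).

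The plot of changes by culture shows which genes changed most in which culture. In KO5, Atf4 rose by 1.63 and Ddit3 by 2.10, the greatest change of each over the 10 cultures, while Asns changed by -1.12, Chac1 by -0.45, Trib3 by -0.14 and Atf5 by 0.02. In KO4, Atf4 rose by 0.05, its smallest change, while Chac1 rose by 1.44 and Atf5 by 1.35. In WT5, Atf4 rose by 0.45, its smallest change in WT, while Atf5 rose by 1.78 and Trib3 by 2.05, the greatest change of each.

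Over the 10 cultures, 36 pairs of genes were correlated in their changes. Of these, 17 had a Pearson r above 0, and r ran from -0.78 to 0.66. No pair passed adjustment over the 36 pairs by permutation (100000 resamples, two-sided, smallest adjusted p = 0.249 for r and 0.572 for Spearman's rho), and 6 had an unadjusted permutation p under 0.05 for r. The lowest r was that of Atf4 and Chac1, -0.78 (permutation p = 0.00864), with rho -0.72 (permutation p = 0.0235). Without the pair of cultures farthest from the median Atf4 change it was -0.34, so that it rests on those cultures. Among the 7 cultures of batch 3, which pools the batch labels 3.1, 3.2 and 3.3, it was -0.83. The highest r, 0.66, was that of Atf4 and Ddit3 (permutation p = 0.0363, rho 0.48 with permutation p = 0.166), and it was 0.36 without the farthest cultures and 0.71 in batch 3. For every pair of genes, the pair of cultures farthest from the median change of its first-named gene was left out in the same way. The cultures left out thus differ with that gene. This moved r away from 0 for 20 of the 36 pairs and toward 0 for 16, and changed its sign for 9. Atf4 and Asns went from -0.36 to 0.87, Atf5 and Asns from 0.24 to 0.79, and Ddit3 and Ppp1r15a from 0.63 to 0.81, pairs chosen after their values were seen. With these cultures the data do not show whether the members change together.

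Genes whose change over the 10 cultures was most like that of a member were ranked by the root mean square difference in log2 change, among 9468 genes with a mean level of at least 3 log2 CPM. Nearest to Atf4 were Cd164 and Prkd1 at 0.16 and Gramd1a at 0.19. Among the members, Ppp1r15a was nearest to Atf4 at 0.34 and Psat1 followed at 0.41. Nearest to Ddit3 were Gm4258 at 0.29, mt-Rnr2 at 0.32 and Adamts6 at 0.33. For Atf3, compared with 9469 genes, the nearest were Jun at 0.43, Nr4a1 at 0.65 and Egr1 at 0.71, all immediate early genes. Among the members, Ddit3 was nearest to Atf3 at 1.72. The distance is taken on the changes themselves, so it includes their mean size. The fitted difference was 2.96 (WT) and 2.85 (KO) for Atf3, beside 1.09 and 1.42 for Ddit3. Atf3 thus lies far from the other members by size alone. Whether its pattern over cultures is nearer to the immediate early genes was not tested.

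The knockout was compared with WT within each condition, to ask whether loss of ciRS-7 changed the level of these genes. No member was called in either condition. In normoxia 0 of 9 members were called against 0.0353% of all genes. An unadjusted limma p under 0.05 was found for 2 of the 9, against 1.81% of all genes. Those 2 were Ddit3, with a KO minus WT difference of -0.47 (95% interval -0.88 to -0.07), and Trib3, with 0.73 (0.19 to 1.28). Their adjusted p by limma was 1.0. In that table Ddit3 stood at 2.36 to 3.60 log2 CPM in N_KO and 3.28 to 3.68 in N_WT, and Trib3 at 0.40 to 1.41 in N_KO and -0.39 to 0.81 in N_WT. Both pairs of groups overlapped. The other 7 differences in normoxia lay between -0.06 and 0.05, and the widest of their 95% intervals, that of Atf3, ran from -0.45 to 0.55.

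Under OGD 0 of the 9 members listed in every table were called against 0.0282% of all genes. None of them had an unadjusted limma p under 0.05, against 1.78% of all genes. Gdf15 is left out of these counts. The differences ran from -0.14 for Ddit3 to 0.40 for Trib3 and Gdf15. For Atf4 the difference was -0.03 (95% interval -0.41 to 0.36). The Trib3 interval ran from -0.04 to 0.84 and that of Gdf15 from -0.16 to 0.95. Gdf15 was listed only in comparisons that hold OGD_KO, so its listing may rest on the OGD_KO side of this one. Its value here is a description.

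The response to OGD was then compared between genotypes in a joint limma fit over the 13688 genes listed in all tables, with culture as a random block. No member and no gene was called (0.0%), and 100 genes, or 0.731%, had an unadjusted p under 0.05, none of them a member. For Atf4 the KO response minus the WT response was -0.03 (95% interval -0.58 to 0.53). For Ddit3 it was 0.34 (-0.21 to 0.90) and for Trib3 -0.40 (-1.23 to 0.44). The Trib3 interval includes a difference as large as its own response in WT, and these intervals do not show that the genotypes respond alike. The OGD comparisons and the genotype comparisons share libraries.

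**Figure D3:**
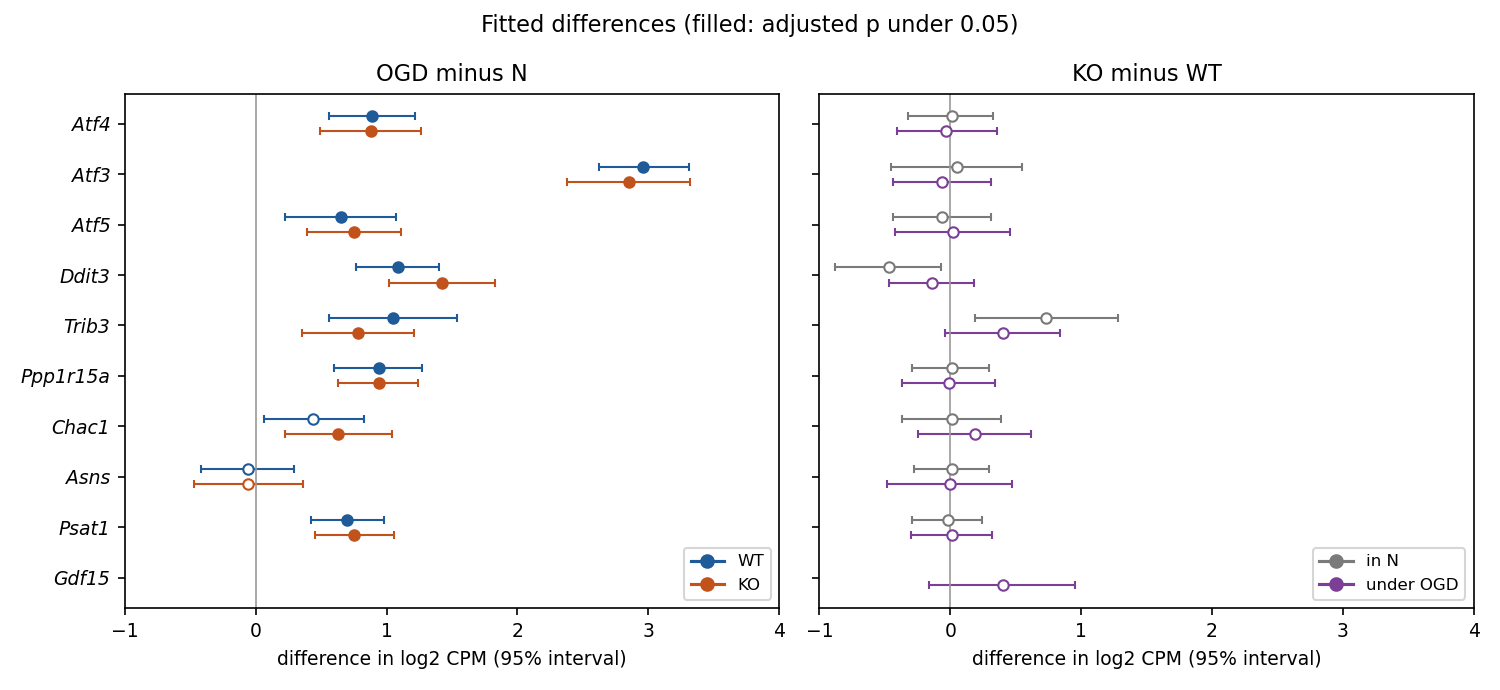
Fitted differences in log2 CPM with 95% intervals for each gene. Left, OGD minus N in WT (blue) and KO (orange), without Gdf15. Right, KO minus WT in N (grey) and under OGD (purple), where Gdf15 is a description. Filled points passed the adjusted threshold. All points but Asns and WT Chac1 are filled on the left, and none is filled on the right.

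Batch and scaling bear on these values. The batch labels are 1 (WT1 and KO1), 2 (KO3), 3.1, 3.2 and 3.3. Labels 3.1, 3.2 and 3.3 were pooled here as batch 3 (4 WT and 3 KO cultures), also for the batch term. Batch 3 thus mixes labels, with 3.3, 3.2, 3.3 and 3.1 in WT2 to WT5 and 3.1, 3.1 and 3.3 in KO2, KO4 and KO5. In WT only WT1 lies outside batch 3, so the WT fit within batch 3 is the fit without WT1. In it the differences stayed called for 7 of 9 members. In the 3 KO cultures of batch 3, 3 of these 9 were called, Atf3, Ddit3 and Ppp1r15a, and Atf4 was at 0.88 with an adjusted p of 0.0513. Within batch 3, 4916 of the 14235 genes in WT and 2341 of the 14375 in KO were called in either direction. When libraries were scaled by their total reads, the median gene shifted by -0.28 in WT and -0.29 in KO, and the share of called genes that were higher under OGD went from 48.6% to 22.1% in WT and from 51.3% to 21.9% in KO. On that scale Atf4 rose by 0.61 in WT and 0.59 in KO, and of the 9 members 6 were called in WT and 5 in KO, against 11.4% and 10.3% of all genes called higher on that scale and 40.4% and 36.8% called lower. Atf5 (0.37 in WT, 0.46 in KO) and, in KO, Trib3 (0.60) and Chac1 (0.37) were no longer called. Relative to the median gene on that scale, Atf4 was 0.92 higher in WT and 0.87 higher in KO.

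The genes around the core were followed in lists chosen by function. Each count is to be read against all genes, of which 21.6% in WT and 21.0% in KO were called higher and 22.8% and 19.9% lower, or, scaled by total reads, 11.4% and 10.3% higher and 40.4% and 36.8% lower. Among the kinases, phosphatases and eIF2 parts that lie upstream of ATF4, 4 of 21 rose in WT and 3 of 21 in KO, none fell, and the list median was 0.10 and 0.14. The shares that rose are below those over all genes. Scaled by total reads, 1 rose in each genotype and 7 fell in WT and 6 in KO. Eif2ak3, which encodes the kinase PERK of the endoplasmic reticulum, rose by 1.22 in WT (SE 0.16, adjusted p = 3.01e-06) and by 1.16 in KO (SE 0.16, adjusted p = 1.93e-05), without overlap of the groups. Impact, an inhibitor of the kinase GCN2, rose by 0.61 in WT (adjusted p = 0.013) and had a difference of 0.47 in KO (adjusted p = 0.143). Without KO3 only 1 gene of the list was called higher in KO. In WT, 1 gene was called lower without WT2, 1 without WT4 and 2 without WT5. In KO, 2 were called lower without KO4.

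Of the other stress regulators that ATF4 or its partners control, 11 were listed in every table, of which 7 rose in WT and 8 in KO, against 21.6% and 21.0% of all genes, and none fell. Scaled by total reads, 6 rose in each genotype, against 11.4% and 10.3% of all genes, and none fell. The list medians were 0.68 and 0.81. Vegfa, the angiogenic growth factor that is also a hypoxia target, rose by 3.29 in WT and 2.98 in KO. Nupr1, a small chromatin-associated stress protein, was not listed in the table of the normoxic libraries, so that its listing may rest on the OGD libraries and it is given without a test. It had 3 to 12 reads in N_WT and 24 to 68 in OGD_WT, and 1 to 5 in N_KO and 22 to 62 in OGD_KO. Fgf21 and Adm2 were not listed.

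Of the bZIP genes whose products can pair with ATF4 or its targets, 10 were listed in every table, and 8 of them rose in each genotype, against 21.6% and 21.0% of all genes. None fell, and the counts were the same when scaled by total reads, against 11.4% and 10.3% of all genes. The medians were 1.07 and 1.18. Jun rose by 2.89 in WT (SE 0.15, adjusted p = 1.15e-11) and 2.75 in KO (SE 0.18, adjusted p = 7.91e-09). Fos rose by 2.77 and 2.41. The other two, Maf and Atf2, named after their values were seen, were not called, with Atf2 at -0.16 and -0.27. Cebpa and Cebpd were not listed in the table of the normoxic libraries and are left out of these counts. Cebpb and Cebpg belong both to this list and to that of the stress regulators.

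In amino acid synthesis and one-carbon metabolism, 8 of 12 genes rose in WT and 10 of 12 in KO, against 21.6% and 21.0% of all genes, with none lower in WT and 1 lower in KO. Scaled by total reads, 4 rose and 1 fell in each genotype. Phgdh, the first enzyme of the serine pathway to which Psat1 belongs, rose by 1.01 in WT (SE 0.16, adjusted p = 2.8e-05) and 1.15 in KO (SE 0.15, adjusted p = 1.03e-05). Shmt2, the mitochondrial serine hydroxymethyltransferase, rose by 0.83 and 0.76. The count of higher genes in WT was 4 without WT1 and 5 without WT3, and 1 was called lower without WT5. In KO the count of higher genes was 7 without KO1 or KO3 and 8 without KO4 or KO5. No gene was called lower in KO without KO4 or KO5, and the 3 KO cultures of batch 3 gave 1 higher.

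Among amino acid transporters, 5 of 9 rose and 1 fell in WT, and 3 of 9 rose and 1 fell in KO, against 21.6% and 21.0% of all genes called higher. With the culture as a block 3 rose in WT, as they did when scaled by total reads, where 3 also fell. Slc7a11, the cystine importer subunit of system xc-, rose by 1.82 in WT (SE 0.20, adjusted p = 4.02e-07) and 2.12 in KO (SE 0.17, adjusted p = 4.77e-08). Its heavy chain partner Slc3a2 rose by 1.05 and 1.08. Slc7a3, a carrier of cationic amino acids, fell by 0.75 in WT (adjusted p = 0.00293) and by 0.65 in KO (adjusted p = 0.00279). Without KO5, 5 transporters rose in KO, and without WT5, 2 fell in WT.

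Of the cytosolic tRNA synthetases, 4 of 12 rose in each genotype, against 21.6% and 21.0% of all genes, and none fell, with medians of 0.14 and 0.19. Scaled by total reads, 2 rose in each, against 11.4% and 10.3% of all genes, and 2 fell in WT and 1 in KO. Eprs, for glutamate and proline, rose by 0.92 in WT and 0.96 in KO, and Tars, for threonine, by 0.80 and 0.96. Without WT5, 1 gene fell in WT.

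The other arms of the unfolded protein response, through ATF6 and XBP1, are separate from ATF4. In that list 4 of 16 genes rose and 2 fell in WT, and 4 rose and 1 fell in KO, with medians of 0.08 and 0.20. The share that rose is near the 21.6% and 21.0% of all genes. Scaled by total reads, 1 rose and 6 fell in WT, and 2 rose and 4 fell in KO. Hsp90b1, a chaperone of the endoplasmic reticulum, rose by 0.73 and 0.78, and the disulfide isomerase Pdia4 by 0.65 and 0.78. Xbp1 itself fell by 0.62 in WT (adjusted p = 0.00844) and by 0.55 in KO (adjusted p = 0.00741). Edem1, which sends misfolded glycoproteins to degradation, fell by 0.56 in WT and was at -0.33 in KO (adjusted p = 0.169). In WT, 1 gene fell without WT2 and 4 without WT5. In KO, 2 rose without KO1, none fell without KO3, 2 fell without KO4 or KO5, and none was called in the 3 cultures of batch 3.

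**Figure D4:**
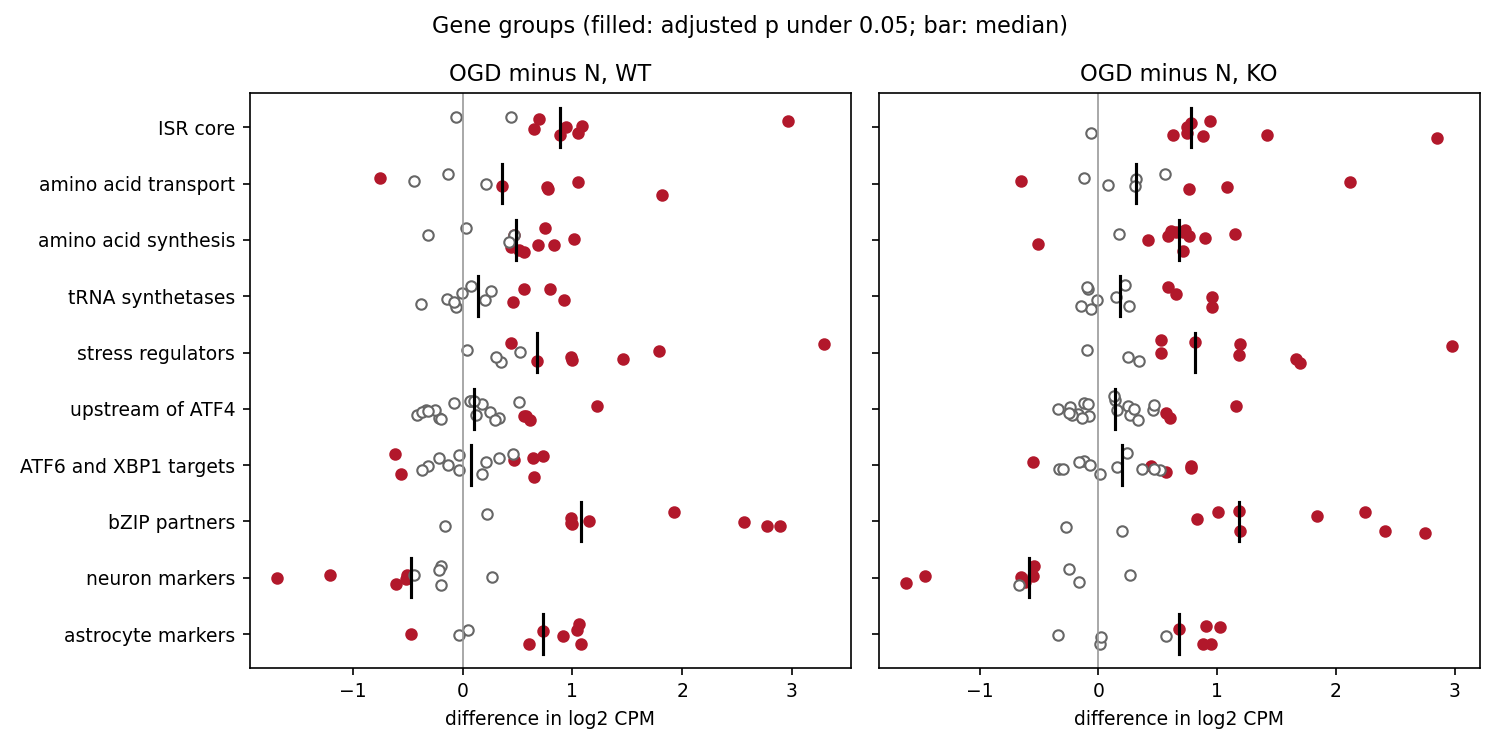
Difference in log2 CPM (OGD minus N) of every gene of the core and 9 other lists that was listed in all tables, WT on the left and KO on the right, each point a gene, filled where the adjusted p was under 0.05, with a bar at the list median. The core, the stress regulators and the bZIP partners have medians of 0.68 or more in both genotypes, as have the astrocyte markers. The tRNA synthetases, the list upstream of ATF4 and the ATF6 and XBP1 targets have medians of 0.08 to 0.20.

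Markers of cell types moved beside these lists. Of 10 neuron markers, none rose and 5 fell in WT and 6 in KO, against 22.8% and 19.9% of all genes called lower. Slc17a7, the vesicular glutamate transporter, fell by 1.69 in WT (SE 0.19, adjusted p = 7.25e-07) and by 1.62 in KO (SE 0.24, adjusted p = 3.28e-05), and Syt1, a synaptic vesicle calcium sensor, fell by 1.21 and 1.46. The WT count was 3 without WT2 or without WT3, and it was 9 in both genotypes when scaled by total reads, where 40.4% and 36.8% of all genes were called lower. Of 9 listed astrocyte markers, 6 rose and 1 fell in WT and 5 rose in KO, against 21.6% and 21.0% of all genes called higher. Slc1a3 and Gja1, a glutamate transporter and a gap junction protein, rose by 1.08 and 1.06 in WT and by 0.95 and 0.91 in KO. Gfap, the intermediate filament of reactive astrocytes, fell by 0.47 in WT (adjusted p = 0.0434), a call lost without WT1 or WT3, and was at -0.34 in KO (adjusted p = 0.123). In KO, 3 astrocyte markers rose when scaled by total reads, 2 within batch 3, and 1 fell without KO4.

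Of 7 listed oligodendrocyte lineage markers, 1 rose and 2 fell in WT and 3 rose in KO. Over all genes 21.6% and 21.0% were called higher and 22.8% and 19.9% lower. The marker counts ran from 0 to 3 when single cultures were left out. Of 5 endothelial markers only Kdr was listed, and not in the table of the normoxic libraries, so that it is given without a test, at 5 to 17 reads in N_WT, 7 to 21 in OGD_WT, 6 to 14 in N_KO and 6 to 37 in OGD_KO. No gene of any of these lists was called between genotypes.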

How the data were processed

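RNA libraries were made with a stranded total RNA kit after TRIzol extraction, per the labels' protocols, and the submitters' processing notes name the build mm10. The aligner, counting, annotation, gene filter and scaling are not given in the sources used here. The authors deposited 4 tables of log2 CPM, 1 per comparison, with 10 libraries each. For every gene, the smallest and largest deposited value among the 5 libraries of a group sat at the 10th and 90th percentile of that group (0.6 of the extreme plus 0.4 of its neighbour), as clipping would leave them. This was inferred from the values and undone. Values then corresponded to whole reads within 0.05 reads for at least 99.91% of genes of up to 500 reads, against 45.5% to 92.8% of those in a library as deposited, and the reads agreed between tables for at least 99.98% of genes.

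Each comparison was fitted within its table with limma 3.58.1 in R 4.3.3 (lmFit, eBayes with trend, two-sided). The interaction used log2 CPM rebuilt from the reads with a prior count of 2 and total reads, with a random block for culture (consensus correlation -0.169). Count tests were not run. Summaries used Python 3.11.15. The 50-base words come from GENCODE M21 transcripts.

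N and OGD libraries of a number share a culture and batch label, so the number pairs them. Same-number correlations of deviations were -0.64 to 0.06 in WT and -0.79 to -0.07 in KO. The highest correlation of a library with another number was 0.10 to 0.22 in WT and 0.11 to 0.20 in KO, above the same-number value in every culture. The pairing thus rests on the labels, and changes by culture carry the scatter of both libraries. Between genotypes only number 1 joins cultures of one batch label, with 3.1, 3.2 and 3.3 kept apart. The numbers were therefore not taken to pair libraries there, and a block by number is given only as an alternative.

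The members and lists were chosen with earlier results of these data known. Genes not listed in every table (Gdf15, Nupr1, Cebpa, Cebpd and Kdr) may be listed only through the libraries where they were high. They are left out of the counts of called members and list genes for OGD against N. Genes named from a list were up to 2 with the largest called rises and up to 2 with the largest called falls in WT, and the 3 nearest genes of Atf4, Ddit3 and Atf3. Alternatives were the deposited values, a mean level of at least 1 log2 CPM, a prior count of 0.5, equal library medians, the block, a batch term, batch 3 only, leaving out each replicate and, added after seeing the data, scaling by total reads.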

Additional observations from a re-analysis of the deposited data

Results flagged for a closer look

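Within groups of 5 libraries, 38 sets of member levels were examined for a lowest or highest library far from the rest (gap over range above 0.71), which chance alone flags in about 1 of 20 sets. In 4 sets such a library was found. Atf4 in N_WT 4 was at 6.60 log2 CPM, below the other N_WT libraries at 7.02 to 7.12. Asns in OGD_WT 4 was at 7.71 log2 CPM, above the others at 6.73 to 6.98. Ddit3 in OGD_KO 3 was at 3.95 log2 CPM, below the others at 4.28 to 4.37. Psat1 in OGD_KO 2 was at 5.83 log2 CPM, below the others at 6.28 to 6.42. Each rests on between 207 and 1638 reads.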

How the results depend on the processing

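Of 708 values of single members, Gdf15 included, recomputed under an alternative, 689 kept their side of the threshold. The other 19 changed it, all in the OGD comparisons, and no called value changed sign. Of the 708, 482 were genotype or interaction values, none of them called, so that their staying says little. In the OGD comparisons 107 values in KO kept their side and 12 lost the call. In WT 100 kept it, 4 lost the call and 3 gained it. The KO values include Gdf15, which had to be higher in OGD_KO. The WT values count the fit without WT1 a second time as batch 3 only. The number of genes called for OGD in KO was 5884, and 2341 in batch 3 only. There 3 of the 9 members listed in every table were called in place of 8. Without a replicate the OGD counts were 4313 to 6993 in WT and 4025 to 5923 in KO, with 6 to 8 and 7 to 8 of these 9 members. With the replicate block, which pairs N and OGD of a culture, they were 5681 and 4829, with 6 members called in WT and 7 in KO. No other member call changed than those of Atf5 in WT and Chac1 in KO. With the deposited, clipped values the OGD counts were 8280 and 8024.

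Between genotypes 5 genes were called in normoxia. The count was 9 with the deposited values, 3 with a mean level of at least 1 log2 CPM, 3 with the replicate block, 2 in batch 3 only and 3 to 5 without a replicate. Under OGD it was 4, and 12 with the deposited values, 1 with a prior count of 0.5, 2 with the replicate block, 2 scaled by total reads, 2 with a batch term and 1 to 7 without a replicate. The numbers pair no libraries across genotypes. No member was called between genotypes, and no gene in the interaction, under any alternative run. For Gdf15, Trib3 and Atf3 the few reads in N limit the precision, and their intervals cover the spread on a scale that the prior count sets.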
